A study of Caenorhabditis elegans with 24 samples.

Results

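The C-type lectin genes of Caenorhabditis elegans were taken as every gene whose name begins with clec-. There were 265 of them among the 45642 genes of the poly(A) RNA table. A gene counted as expressed when it had a normalized count of 10 or more in at least 3 poly(A) libraries, and 147 of the 265 did so, among 15807 expressed genes in all. In the table of RNA recovered with the J2 antibody, which binds double-stranded RNA, 32 of the 8783 genes were C-type lectin genes.

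C-type lectins carry a fold that in many animals binds sugars with the help of calcium, and a large share of the worm proteins have a signal peptide, so that they are secreted or displayed at the cell surface. The family is expanded in C. elegans, many members are made in the intestine, and several are known as effectors or readouts of the response to bacteria, in part downstream of the PMK-1 p38 kinase pathway. TDP-1 is the worm ortholog of TDP-43, an RNA-binding protein that acts in splicing and RNA stability.

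The study compared tdp-1(ok803), a strain with a deletion allele of tdp-1, with the wild-type strain N2. Poly(A) RNA came from whole L4 larvae grown at 20°C, in 3 tdp-1(ok803) and 3 N2 libraries. J2 immunoprecipitates (J2-IP) came from extracts of whole young adults grown at 15°C, in 3 libraries per genotype, with 1 library of input RNA per genotype. The labels number the replicates without naming separate cultures. The study's methods describe the J2-IP lysates as biologically independent, and its poly(A) comparison as made on independent biological replicates, fewer than the poly(A) libraries used here, so for poly(A) RNA some of the spread between libraries may be technical.

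The poly(A) libraries held between 65546397 and 107297985 recovered reads, and 1 read was worth 0.785 to 1.34 normalized counts. The tdp-1 gene itself had 915, 3542 and 3478 normalized counts in tdp-1(ok803) replicates 1 to 3 and 2156, 3501 and 4322 in N2 replicates 1 to 3. In the J2-IP it had 53, 61 and 50 in tdp-1(ok803) and 27, 27 and 25 in N2. Its input went the other way, with 12 in tdp-1(ok803) and 38 in N2, from 1 library each. These are counts over the whole gene, and whether they come from the part left by the deletion was not tested. The genotype names used here are those of the labels.

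Among the 265 genes, 43 were listed at 0 in all 6 poly(A) libraries, 75 had some reads without passing the filter, and 115 had 10 or more normalized counts in every library. Of the 239 annotated in RefSeq as protein coding, 139 (58.2%) were expressed, against 74.9% of the 16062 protein-coding genes of the table that could be matched by name. Of the 25 annotated as pseudogenes, 7 were expressed. The expressed genes were 57 of 96 on chromosome V, 37 of 58 on chromosome IV, 30 of 51 on chromosome II, 12 of 38 on chromosome I, 7 of 18 on chromosome III and 3 of 3 on chromosome X. At the edge of the filter, clec-103 passed with 6.21, 10.2 and 0 normalized counts in tdp-1(ok803) and 10.2, 4.54 and 10.7 in N2. The gene clec-40 stayed just outside it with 18.6, 9.14 and 9.50 in tdp-1(ok803) and 9.42, 8.17 and 29.5 in N2.

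A few genes made up most of the C-type lectin mRNA. The median expressed member had a mean of 253 normalized counts over the 6 libraries, and the median of all expressed genes was 874. There were 42 members with a mean under 50, 50 between 50 and 500, 38 between 500 and 5000, and 17 at 5000 or more. The 10 most counted genes were clec-63, clec-50, clec-83, clec-150, clec-1, clec-48, clec-5, clec-52, clec-65 and clec-84, and together they made up 62.2% to 67.8% of the family's normalized counts in tdp-1(ok803) libraries and 67.8% to 72.2% in N2 libraries. These levels are per gene and not per length, so they order the genes only by their share of the counts.

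The leading gene was clec-63, a member reported to respond to infection. It had 184830, 60729 and 69467 normalized counts in tdp-1(ok803) replicates 1 to 3 and 244284, 118988 and 158319 in N2 replicates 1 to 3. Each tdp-1(ok803) library was below the N2 library of the same number, while the ranges of the genotypes overlapped through tdp-1(ok803) replicate 1. It took 41.2%, 21.4% and 23.9% of the family's normalized counts in tdp-1(ok803), against 44.5%, 33.7% and 36.5% in N2. The difference on the log2 scale was -0.85 ± 0.48 (SE, n = 3 each).

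The whole family summed to 341189 ± 92921 normalized counts in tdp-1(ok803) and 445241 ± 98181 in N2 (SD, n = 3 each). Without clec-63 the sums were 236181 ± 23754 in tdp-1(ok803) and 271377 ± 35245 in N2. Within each replicate number the sum was lower in tdp-1(ok803), at 448414 against 548564 in N2 for replicate 1, 284214 against 353171 for replicate 2 and 290940 against 433989 for replicate 3. Without clec-63 it was also lower in all 3 pairs. Replicate 1 was above the others in both genotypes with clec-63 counted and without it, and the SDs include that gap. As a share of recovered reads, the family made up 0.502%, 0.410% and 0.414% in tdp-1(ok803) replicates 1 to 3 and 0.651%, 0.490% and 0.494% in N2 replicates 1 to 3.

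The first comparison asked whether loss of TDP-1 changed the abundance of C-type lectin mRNAs in L4 larvae. With limma over 15807 genes, at an adjusted p under 0.05, no member was called higher and none lower (percent of all genes called 0 in each direction). The study's own edgeR comparison, on fewer replicates, reported many transcripts of altered abundance, so the absence of calls here is not the study's outcome. At an unadjusted p under 0.05 limma gave 5 of 147 members (3.40%), beside 2.61% of all genes. At that level edgeR gave 6 and DESeq2 gave 8, again with none past an adjusted p of 0.05. The shares of all genes with edgeR and DESeq2 are not given here, so those counts cannot be set against other genes. The median log2 fold change of the 147 members, tdp-1(ok803) over N2, was -0.11, against -0.018 for all genes tested. Of the members, 85 lay below 0 (57.8%), as did 52% of all genes. Taken by replicate number, the member median was -0.028 for replicate 1, -0.13 for replicate 2 and -0.15 for replicate 3. The median of all expressed genes was -0.039, -0.049 and 0.0021 in the same order, so in replicate 1 the members did not lie below it.

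**Figure D1:**
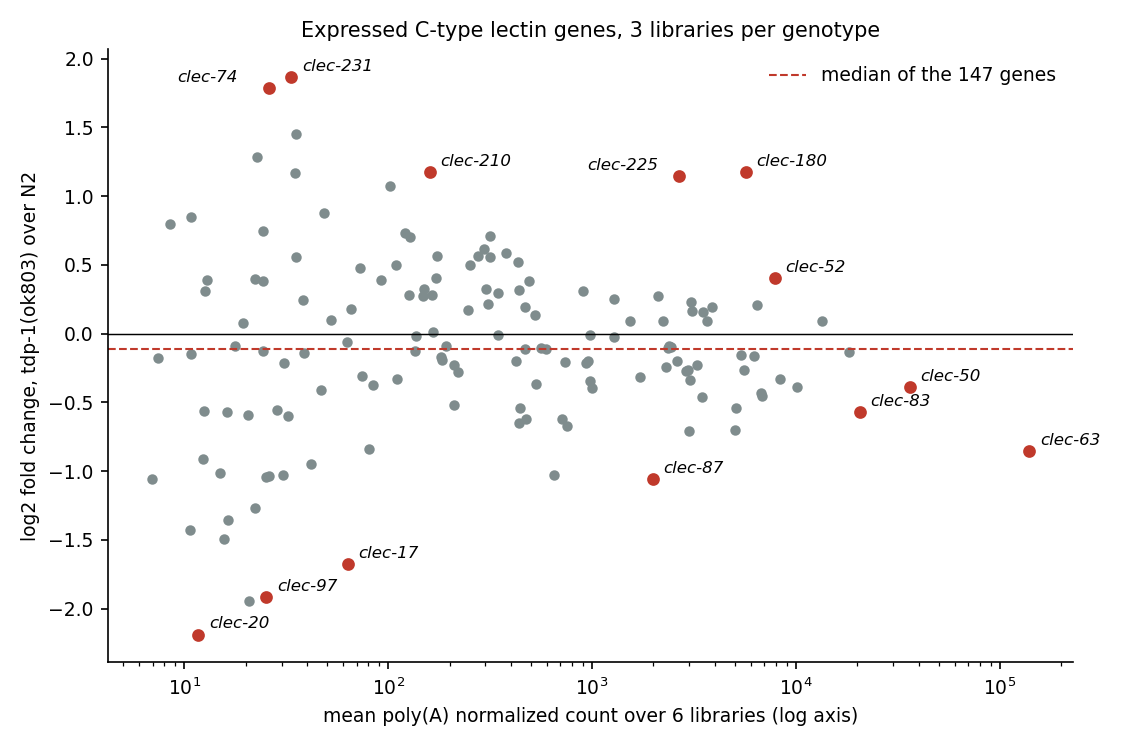
Log2 fold change of each of the 147 expressed C-type lectin genes in poly(A) RNA, tdp-1(ok803) over N2 (vertical axis), against the mean normalized count over 6 libraries (horizontal, log axis); red points are named genes and the dashed line is the member median of -0.11. The widest changes lie among genes with few counts, and the most counted genes, clec-63, clec-50 and clec-83, lie below 0, with no gene past an adjusted p of 0.05.

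Large fold changes were mostly found in genes with few counts. There were 9 members over 2-fold higher and 15 over 2-fold lower in tdp-1(ok803), where 3.16% and 2.68% of all genes lay, and 17 of these 24 had a mean under 50 normalized counts. Among the 17 members with a mean of 5000 or more, 9 were lower in tdp-1(ok803) in all 3 pairs of same-numbered libraries (52.9%, beside 22.3% of the 2433 expressed genes with such a mean) and 0 were higher in all 3 (beside 12.5%). Over all 147 members, 31 were lower in every pair (21.1%, beside 18.2% of all expressed genes) and 14 higher (9.52%, beside 15.2%). These values are descriptions, since no member passed the test.

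The 3 tdp-1(ok803) values lay above all 3 N2 values for 8 members (5.44%), beside 4.43% of all expressed genes, and below them for 6 members (4.08%), beside 3.49% of all. Among limma's values the lowest unadjusted p of the family was that of clec-225, with 3407, 4212 and 3343 normalized counts in tdp-1(ok803) and 2314, 1334 and 1433 in N2. Its log2 fold change was 1.15 ± 0.28 (SE, n = 3 each), and its limma adjusted p of 1.00 did not pass. Over the other fits of 5 or 6 libraries the adjusted p of clec-225 ranged over 0.216 to 1.00.

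The gene clec-210 had 229, 231 and 205 normalized counts in tdp-1(ok803) and 90.3, 90.7 and 113 in N2. The genotypes were well apart and the libraries of each were close together, with a log2 fold change of 1.18 ± 0.33 (SE, n = 3 each). In RefSeq the gene overlaps srt-56, so reads of the 2 genes may not be fully separated in its count. Lower down, clec-43 had 180, 103 and 129 in tdp-1(ok803) and 80.9, 36.3 and 84.4 in N2.

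The other non-overlapping genes with higher values in tdp-1(ok803) were counted less or differed less. The gene clec-74 had 37.3, 33.5 and 46.4 normalized counts in tdp-1(ok803) and 7.85, 26.3 and 5.36 in N2, a log2 fold change of 1.78 ± 0.70 (SE, n = 3 each). The largest rise of the family was that of clec-231, at 1.87 ± 0.88 on the log2 scale, with 28.4, 67.1 and 54.9 in tdp-1(ok803) and 22.8, 25.4 and 2.68 in N2. The pseudogene clec-237 had 80.7, 42.7 and 32.7 in tdp-1(ok803) and 21.2, 9.07 and 25.5 in N2. These 3 genes had under 100 normalized counts in every library, and the spread within a genotype was wide. The genes clec-34 and clec-26, both on chromosome V, are described with the neighbours they have there.

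Of the 6 members with lower values in every tdp-1(ok803) library, 4 were well counted. The gene clec-50 had 33690, 29963 and 30209 normalized counts in tdp-1(ok803) and 42242, 36335 and 44458 in N2, a log2 difference of -0.39 ± 0.21 (SE, n = 3 each). For clec-83 the values were 18587, 15878 and 14980 in tdp-1(ok803) and 28156, 20312 and 25470 in N2, a difference of -0.57 ± 0.23. Its neighbour clec-84 had 6060, 5705 and 5272 in tdp-1(ok803) and 9245, 7187 and 6723 in N2. All 3 differences were below 2-fold. In RefSeq clec-83 and clec-84 each overlap a further gene.

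The infection-responsive gene clec-49 had 3312, 2803 and 2592 normalized counts in tdp-1(ok803) and 4887, 3433 and 3770 in N2. The pseudogene clec-236 had 347, 399 and 363 in tdp-1(ok803) and 452, 756 and 541 in N2. The gene clec-158 had 7.98, 8.13 and 6.33 in tdp-1(ok803) and 20.4, 17.2 and 33.5 in N2, so that its fold change of -1.50 ± 0.62 on the log2 scale (SE, n = 3 each) rests on a small number of reads.

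The remaining large rises and falls overlapped between genotypes. For clec-180 the values were 9874, 5143 and 4630 normalized counts in tdp-1(ok803) and 11109, 2543 and 725 in N2, with a log2 fold change of 1.17 ± 0.88 (SE, n = 3 each). The gene was high in replicate 1 of both genotypes, and the difference lay in replicates 2 and 3. For clec-106 they were 14.2, 40.6 and 43.3 in tdp-1(ok803) and 16.5, 16.3 and 5.36 in N2.

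The 8 largest falls were those of clec-20, clec-25, clec-97, clec-17, clec-158, clec-182, clec-232 and clec-22, with log2 fold changes of -2.19 to -1.27. The largest belonged to clec-20, with 10.6, 0 and 4.22 normalized counts in tdp-1(ok803) and 18.1, 28.1 and 9.38 in N2. The infection-responsive gene clec-17 had 158, 1.02 and 17.9 in tdp-1(ok803) and 129, 32.7 and 44.2 in N2. In both genotypes clec-17 was highest in replicate 1, and its SE of 1.46 on the log2 scale was close to its fold change of -1.68. For clec-182 the values were 4.44, 0 and 17.9 in tdp-1(ok803) and 5.50, 25.4 and 10.7 in N2. For clec-232 they were 7.98, 17.3 and 3.17 in tdp-1(ok803) and 34.6, 23.6 and 12.1 in N2. No gene of this group reached 200 normalized counts in any library.

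**Figure D2:**
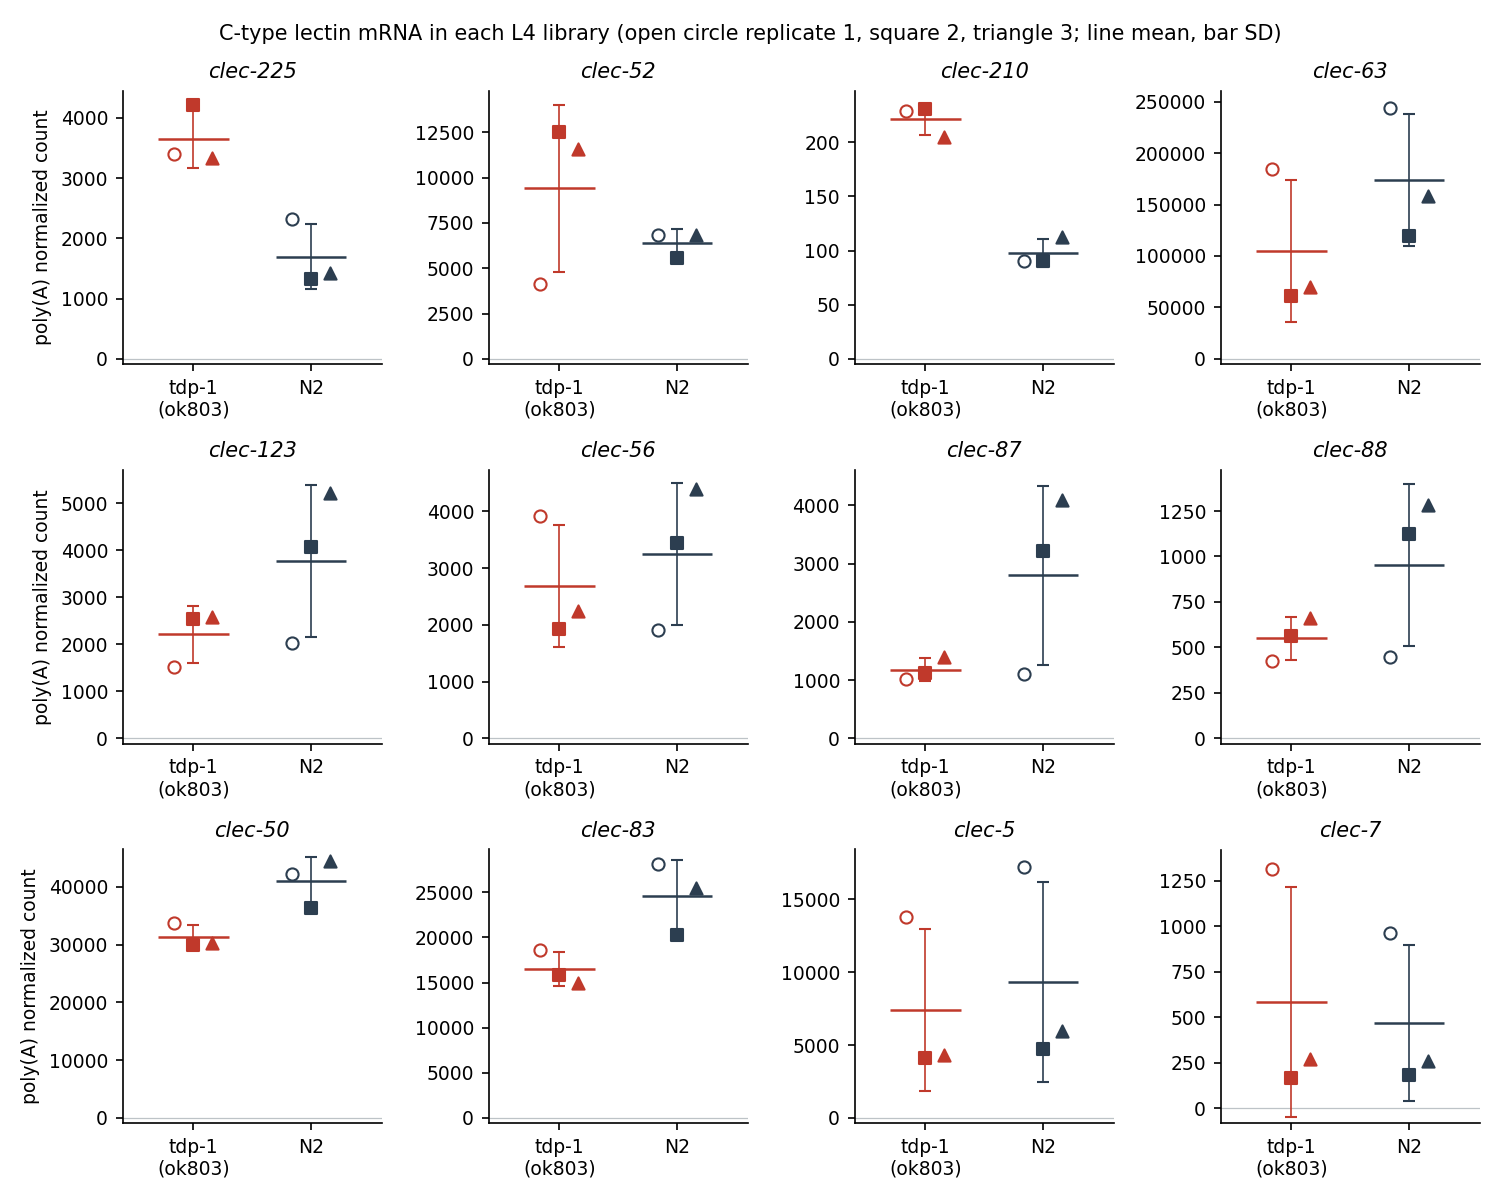
Poly(A) normalized count (vertical axes, linear) of 12 C-type lectin genes in each of 3 tdp-1(ok803) libraries (left, red) and 3 N2 libraries (right, dark); the open circle is replicate 1, the square replicate 2, the triangle replicate 3, the line the mean and the bar the SD. The genotypes separate fully for clec-225, clec-210, clec-50 and clec-83, while clec-87, clec-123 and clec-88 differ most in replicates 2 and 3 and clec-5 and clec-7 follow the replicate number.

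When replicates 2 and 3 were fitted alone, limma called 2 members higher in tdp-1(ok803) (1.36%, beside 2.09% of all genes) and 5 lower (3.40%, beside 2.2% of all genes). The rises were clec-225, at 1.44 on the log2 scale (adjusted p = 0.00967), and clec-52, at 0.97 (adjusted p = 0.0251). The gene clec-52 is an infection-responsive member. It had 4113, 12519 and 11599 normalized counts in tdp-1(ok803) replicates 1 to 3 and 6810, 5539 and 6853 in N2 replicates 1 to 3, so its direction in replicate 1 was the opposite.

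The largest of the 5 falls was that of clec-87, at -1.53 on the log2 scale (limma adjusted p = 0.00967). It had 1018, 1126 and 1393 normalized counts in tdp-1(ok803) and 1102, 3221 and 4087 in N2, so replicate 1 of N2 was as low as the tdp-1(ok803) libraries. In the same fit clec-63 fell by 1.08 (adjusted p = 0.0420), and its N2 replicates 2 and 3 both lay above the tdp-1(ok803) ones. In RefSeq clec-87 overlaps iars-2, a tRNA synthetase gene.

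The remaining falls in that fit were clec-123, clec-88 and clec-56. The gene clec-123 had 1513, 2538 and 2592 normalized counts in tdp-1(ok803) and 2029, 4079 and 5228 in N2. The gene clec-88, which overlaps ctsa-4.1 in RefSeq, had 424, 564 and 661 in tdp-1(ok803) and 445, 1125 and 1285 in N2. The gene clec-56 had 3917, 1919 and 2235 in tdp-1(ok803) and 1915, 3439 and 4390 in N2, and it was thus higher in tdp-1(ok803) in replicate 1. With all 3 replicates, none of these 7 genes passed the test.

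Markers of other tissues moved between the same 4 libraries. Of the 30 sperm markers tested out of 38 listed, 20 were called lower in tdp-1(ok803) replicates 2 and 3, and they summed to 52033 and 54279 normalized counts in tdp-1(ok803) and 96097 and 126463 in N2. Of the 10 oocyte and eggshell markers tested out of 12 listed, 9 were lower, with sums of 10982 and 14388 in tdp-1(ok803) and 28849 and 41463 in N2. Of the 7 hypodermis and molt markers tested out of 8 listed, 5 were higher, with sums of 104491 and 111619 in tdp-1(ok803) and 60407 and 85871 in N2. The sperm genes msp-31, msp-33, msp-45 and msp-71 and the cuticle gene bli-1 were listed at 0 in every library. None of the 9 intestine, 4 muscle or 6 neuron markers was called, and the intestine markers had sums of 380429 and 415844 in tdp-1(ok803) and 537367 and 644177 in N2. The most counted of them, asp-1, weighed most in these sums, with 181064 and 202113 in tdp-1(ok803) and 298119 and 362159 in N2. The marker elt-2 went the other way, with 4229 and 4560 in tdp-1(ok803) and 3414 and 3535 in N2. The rest had log2 fold changes below 0, that of pept-1 only -0.040. The part of these tissues in the C-type lectin values was not tested. In whole-animal RNA, fewer cells of a type and less RNA per cell cannot be told apart.

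The members described in infection studies of the worm gave no call over 3 replicates, where limma called 0 of all genes. The list held 17 such genes and clec-38, which acts in netrin-dependent axon growth, and 17 of the 18 were expressed, all but clec-39. In 12 of the 17, replicate 1 lay above replicates 2 and 3 in both genotypes, and in 1 it lay below them, where 29.3% and 28.9% of all expressed genes did so. The gene clec-60, a well-used readout of intestinal infection, had 9825, 4600 and 5812 normalized counts in tdp-1(ok803) and 10094, 4714 and 3566 in N2. Its neighbour in number, clec-61, had 1024, 123 and 250 in tdp-1(ok803) and 1706, 362 and 436 in N2. For clec-60 the genotypes overlapped widely, while clec-61 was lower in tdp-1(ok803) within each replicate number.

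Several of these genes overlapped between genotypes. The gene clec-66 had 2645, 3051 and 3354 normalized counts in tdp-1(ok803) and 3268, 3213 and 4140 in N2, and clec-85 had 2087, 2215 and 2415 in tdp-1(ok803) and 1822, 2428 and 3144 in N2. The gene clec-41 had 6963, 5084 and 5534 in tdp-1(ok803) and 5273, 6411 and 8129 in N2. For clec-67, clec-4 and clec-65 the log2 fold changes were -0.26 ± 0.40, -0.0076 ± 0.31 and -0.45 ± 0.27 (SE, n = 3 each). The gene clec-38 had 66.5, 10.2 and 22.2 in tdp-1(ok803) and 20.4, 18.1 and 8.04 in N2. The gene clec-39 had 11.5, 9.14 and 8.44 in tdp-1(ok803) and 17.3, 0 and 0 in N2.

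The upstream regulators of the worm immune response gave no call either. The list held 20 genes, among them the TIR adaptor tir-1, the kinases sek-1 and pmk-1, the transcription factors atf-7, zip-2, hlh-30 and skn-1, and the DBL-1 ligand with its SMA signalling proteins. Of the 18 tested, limma called 0 higher and 0 lower in the mutant past the adjusted threshold of 0.05, as it did of all 15807 genes. At an unadjusted p under 0.05 limma gave 0 of the 18, beside 2.61% of all genes. With edgeR and DESeq2, 0 of the 18 passed an adjusted p of 0.05, and the shares of all genes with these tests are not given here. The median log2 fold change of these regulators was -0.19, against -0.018 for all genes tested. The kinase gene nsy-1 was listed at 0 in every library. The gene pmk-1 had 1898, 1406 and 1252 normalized counts in tdp-1(ok803) and 2413, 1680 and 898 in N2, and daf-16, the FOXO transcription factor, had 7439, 5366 and 6303 in tdp-1(ok803) and 9121, 7358 and 9986 in N2.

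For many members replicate 1 stood apart from replicates 2 and 3 in both genotypes. Replicate 1 lay above replicates 2 and 3 in both genotypes for 56 of the 147 members (38.1%), beside 29.3% of all expressed genes, and below them in both for 28 members (19.0%), beside 28.9% of all. The gap exceeded 2-fold in both genotypes for 22 members upward (15.0%, beside 6.33% of all) and for 11 downward (7.48%, beside 9.21% of all). The median shift of the members, averaged over both genotypes, was 0.38 on the log2 scale, and that of all expressed genes was 0.028. No test was made of this pattern, which was known beforehand, and the labels do not say how replicate 1 differed.

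**Figure D3:**
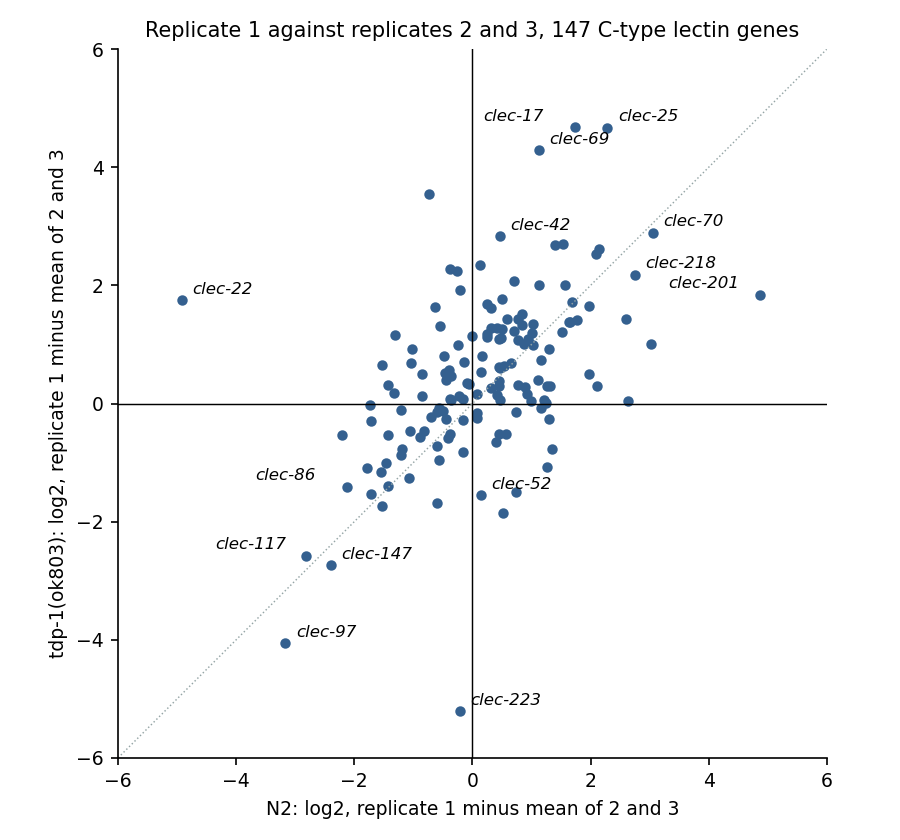
For each of the 147 expressed C-type lectin genes, the log2 difference of replicate 1 from the mean of replicates 2 and 3 in tdp-1(ok803) (vertical axis) against the same difference in N2 (horizontal axis); the dotted line marks equality. There are 56 genes high in replicate 1 of both genotypes, such as clec-70 and clec-218, and 28 low in both, such as clec-117 and clec-147. The gene clec-22 shifted in one direction in tdp-1(ok803) and in the other in N2. For clec-52 the difference was -1.55 in tdp-1(ok803) and only 0.14 in N2.

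Among the genes high in replicate 1, clec-70 had 1172, 173 and 142 normalized counts in tdp-1(ok803) and 880, 159 and 69.7 in N2. The gene clec-218 had 3979, 959 and 798 in tdp-1(ok803) and 6135, 1209 and 683 in N2. Of the abundant genes, clec-5 had 13793, 4102 and 4324 in tdp-1(ok803) and 17202, 4709 and 5993 in N2. In clec-5 replicate 1 was thus 3.27-fold the mean of the others in tdp-1(ok803) and 3.21-fold in N2, and the genotypes differed far less. The gene clec-7 followed the same course, with ratios of 5.99 in tdp-1(ok803) and 4.36 in N2.

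The genes clec-25, clec-201 and clec-69, also among the 6 largest upward shifts with clec-17, had few reads. The pseudogene clec-69 had 109, 5.08 and 4.22 normalized counts in tdp-1(ok803) and 37.7, 29.0 and 9.38 in N2. The pseudogene clec-201 had 11.5, 11.2 and 0 in tdp-1(ok803) and 28.3, 0 and 0 in N2, which puts it at the edge of the filter.

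Among the genes low in replicate 1, clec-117 had 79.8, 409 and 566 normalized counts in tdp-1(ok803) and 104, 660 and 826 in N2. The gene clec-86 had 1034, 3098 and 2439 in tdp-1(ok803) and 612, 2410 and 2990 in N2, and clec-229 had 499, 1703 and 1639 in tdp-1(ok803) and 559, 1444 and 1804 in N2. For all 3 the replicate 1 libraries of both genotypes lay below every other library. The gene clec-147 had 13.3, 122 and 72.8 in tdp-1(ok803) and 19.6, 93.4 and 125 in N2. The gene clec-97 had 0, 12.2 and 20.1 in tdp-1(ok803) and 4.71, 85.3 and 29.5 in N2.

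Markers of tissue and stage shifted with the replicate number as well. The sperm markers summed to 23426, 52033 and 54279 normalized counts in tdp-1(ok803) replicates 1 to 3 and 24093, 96097 and 126463 in N2, with a median shift of replicate 1 of -1.82 on the log2 scale. The hypodermis and molt markers summed to 248488, 104491 and 111619 in tdp-1(ok803) and 204341, 60407 and 85871 in N2, with a median shift of 1.83. The muscle markers shifted by 1.21, the intestine markers by 0.41, the neuron markers by 0.27 and the oocyte and eggshell markers by -0.80. Whether these shifts and those of the C-type lectin genes are related was not tested.

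Many members lie side by side in the genome. In the gene order of RefSeq, 102 members fell into 20 runs of at least 3 C-type lectin genes with no more than 1 other gene between neighbours. Whole runs lacked an expressed member. The 8 genes clec-127 to clec-134 on chromosome II and the 4 genes clec-151 to clec-154 on chromosome III had none, whereas all 5 genes clec-62 to clec-66 on chromosome II were expressed. In that run clec-62 had 5117, 2978 and 3397 normalized counts in tdp-1(ok803) and 8214, 4666 and 5799 in N2. It was, with clec-63, clec-65 and clec-66, lower in tdp-1(ok803) within each replicate number, as were 18.2% of all expressed genes. The remaining gene of the run, clec-64, was higher in tdp-1(ok803) in replicates 1 and 3. It had 348, 97.5 and 170 in tdp-1(ok803) and 178, 103 and 135 in N2.

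The longest run held 15 genes on chromosome V, 13 of them expressed. In 9 of the 13, tdp-1(ok803) replicate 1 was the highest of the 6 libraries, as it was for 45 of all 147 members (30.6%) and for 19.8% of all expressed genes. Its members together had 2285, 1006 and 932 normalized counts in tdp-1(ok803) and 1014, 1214 and 1092 in N2. The gene clec-28 had 479, 246 and 192 in tdp-1(ok803) and 199, 204 and 196 in N2, and clec-33 had 302, 118 and 79.1 in tdp-1(ok803) and 64.4, 118.8 and 84.4 in N2. The N2 libraries were close together for clec-28 and more spread for clec-33, and in both genes tdp-1(ok803) replicate 1 stood above all others. The gene clec-26 of the same run had 505, 293 and 285 in tdp-1(ok803) and 181, 248 and 260 in N2, without overlap between genotypes.

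Other genes on chromosome V had the same library on top. The gene clec-34, in a separate run of 4 genes, had 82.5, 28.5 and 39.05 normalized counts in tdp-1(ok803) and 22.8, 13.6 and 24.1 in N2. The infection-responsive gene clec-42 had 410, 57.9 and 54.9 in tdp-1(ok803) and 81.7, 59.9 and 57.6 in N2. The gene clec-22 went another way within the longest run, with 15.1, 10.2 and 1.06 in tdp-1(ok803) and 0.785, 56.2 and 49.6 in N2. How reads shared by similar neighbouring genes were counted is not given in the sources used here, so values within a run may not be fully separate.

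**Figure D4:**
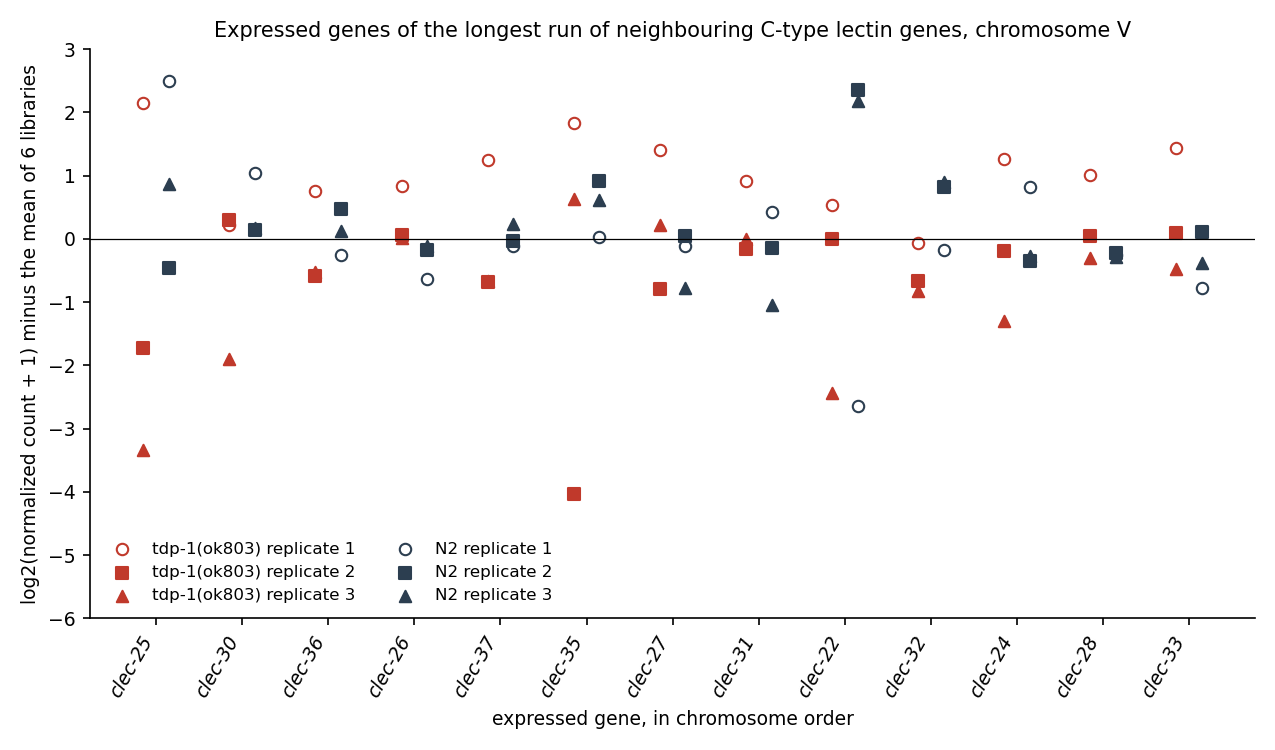
For each of the 13 expressed genes of the longest run of neighbouring C-type lectin genes, the log2(normalized count + 1) of each library minus the mean of its 6 libraries (vertical axis), with genes in chromosome order (horizontal axis); red marks tdp-1(ok803), dark marks N2, and the open circle is replicate 1. The red open circle is the highest point for 9 of the 13 genes.

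The second comparison asked which transcripts were recovered more by the J2 antibody in tdp-1(ok803). The values are normalized counts that the authors scaled to input, rounded to whole numbers. The 32 C-type lectin genes in this table made up 0.580% to 0.638% of its total in tdp-1(ok803) libraries and 0.299% to 0.390% in N2 libraries. Most of this was clec-223, which took 78.3% to 82.6% of the family's values in tdp-1(ok803) and 59.4% to 71.5% in N2. Without it the family summed to 1675, 1660 and 1489 in tdp-1(ok803) and 1248, 1187 and 1267 in N2. The total over all genes was also larger in tdp-1(ok803), at 1.33e+06, 1.35e+06 and 1.39e+06 against 1.06e+06, 1.07e+06 and 1.05e+06 in N2. The sums without clec-223 thus do not by themselves show a rise relative to other genes.

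Genes were tested when they were present in all 3 libraries of a genotype and over 1.5-fold above the N2 input in at least 1 genotype, which left 3963 genes and 15 members. At a p under 0.05 and an adjusted p under 0.1, limma called 6 members higher in tdp-1(ok803) (40.0%, beside 42.7% of all genes tested) and 2 lower (13.3%, beside 8.13%). Of those called higher, clec-52, clec-48, clec-88 and clec-209 passed the filter through their tdp-1(ok803) mean alone. Their N2 means were 0.722, 1.11, 1.41 and 1.07 times the N2 input. The filter thus favoured a rise in these genes, which were also called higher without it. The scalings below used genes that passed this same filter. The median log2 fold change was 0.16 for the members and 0.22 for all genes. With every library scaled to the same total, the median of all genes was -0.12, a shift of more than 0.1, and the members gave 5 higher (33.3%, beside 13.3% of all genes) and 4 lower (26.7%, beside 31.3%). A further scaling multiplied the tdp-1(ok803) values by the ratio of the inputs. That ratio comes from 1 input library per genotype, so p-values with it applied leave out its error. With it applied, 4 of 14 members were higher (28.6%, beside 10% of all genes) and 1 lower (7.14%, beside 24.1%). The share of rises was thus close to that of the whole table as the values were deposited and above it under the other scalings, so how the members stand against other genes depended on the scaling. The genes clec-209, clec-48 and clec-63 were called higher under all 3 scalings. The genes clec-223 and clec-52 were called higher, and clec-262 and clec-93 lower, with the deposited values and with equal library totals but not with the input ratio applied, under which clec-52 was called lower and clec-93 has no value.

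The gene clec-223 had 6050, 6928 and 7053 in tdp-1(ok803) and 2117, 2972 and 1856 in N2. The genotypes were far apart, with a log2 fold change of 1.55 ± 0.18 (SE, n = 3 each) and a limma adjusted p of 0.00196. Its mean was 13.8 times the N2 input in tdp-1(ok803) and 4.77 times in N2. In the input itself it had 143 in tdp-1(ok803) and 485 in N2, the 28th lowest ratio of 8350 genes. When the tdp-1(ok803) values were multiplied by the ratio of the inputs, which undoes a scaling of each gene to the N2 input if the authors scaled in that way, its difference was -0.21 and did not pass (limma adjusted p = 0.460). In poly(A) RNA of L4 larvae it was scarce, with 0, 43.7 and 29.5 normalized counts in tdp-1(ok803) and 14.1, 25.4 and 10.7 in N2. Age, temperature and the kind of RNA all differ between the assays and cannot be told apart.

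The gene clec-52 had 42, 47 and 40 in tdp-1(ok803) and 17, 18 and 17 in N2, a log2 fold change of 1.26 ± 0.089 (SE, n = 3 each, limma adjusted p = 6.59e-04). Its input was 5 in tdp-1(ok803) and 24 in N2, the ninth lowest of the 8350 ratios. With the tdp-1(ok803) values multiplied by the ratio of the inputs the sign turned, to -0.88 (limma adjusted p = 0.00218). Its rise in the J2-IP and its lower input thus stood in the same gene, and the input is a single library per genotype.

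The gene clec-63 had 331, 308 and 317 in tdp-1(ok803) and 203, 179 and 183 in N2, a log2 fold change of 0.76 ± 0.065 (SE, n = 3 each, limma adjusted p = 8.78e-04). The input held 230 in tdp-1(ok803) and 109 in N2. With the input ratio applied, its rise was larger, at 1.83. The direction was opposite to that of its poly(A) values in L4 larvae, where each tdp-1(ok803) library was below the N2 library of its number.

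**Figure D5:**
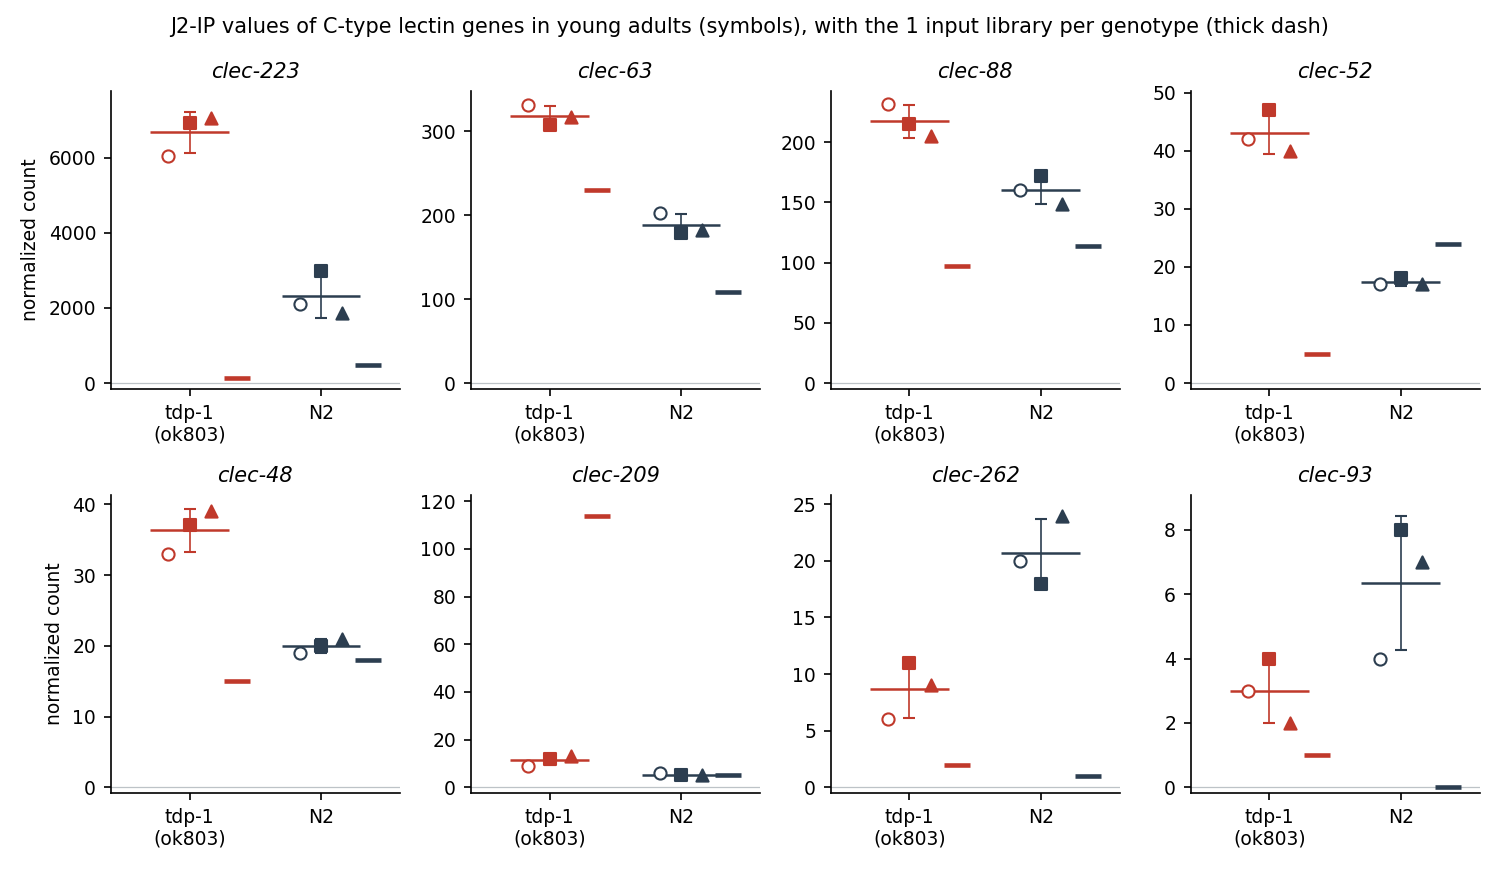
J2-IP normalized counts (vertical axes, linear) of the 8 C-type lectin genes past the threshold, in 3 tdp-1(ok803) libraries (left, red) and 3 N2 libraries (right, dark), with the mean (line), the SD (bar) and the single input library of each genotype (thick dash). The genotypes do not overlap for the 6 genes that rose or for clec-262. The inputs differ in the opposite direction to the J2-IP in all of these genes but clec-63 and clec-209, most for clec-223 and clec-52, and in clec-209 the tdp-1(ok803) input of 114 lies far above every J2-IP value.

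The other 3 rises were smaller or rested on low values. The gene clec-88 had 232, 215 and 205 in tdp-1(ok803) and 160, 172 and 149 in N2, a log2 fold change of 0.44 ± 0.076 (SE, n = 3 each, limma adjusted p = 0.00674), which was 0.081 with equal library totals (adjusted p = 0.496) and 0.21 with the input ratio applied (adjusted p = 0.1003), past the threshold in neither. The gene clec-48 had 33, 37 and 39 in tdp-1(ok803) and 19, 20 and 21 in N2. The gene clec-209 had 9, 12 and 13 in tdp-1(ok803) and 6, 5 and 5 in N2. The input of clec-209 was 114 in tdp-1(ok803) and 5 in N2, the second highest ratio of the 8350 genes. With the input ratio applied its log2 fold change was 5.34 in place of 0.95 (limma adjusted p = 4.14e-05). That p-value reflects the spread of the J2-IP libraries and not the error of the input ratio. The same gene was listed at 0 in all 6 poly(A) libraries.

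The 2 members called lower had low values. The gene clec-262 had 6, 11 and 9 in tdp-1(ok803) and 20, 18 and 24 in N2, a log2 fold change of -1.19 ± 0.22 (SE, n = 3 each, limma adjusted p = 0.00885). With an input of 2 in tdp-1(ok803) and 1 in N2, it stood at 8.67 times the N2 input in tdp-1(ok803) and 20.7 times in N2, and its difference with the input ratio applied was -0.27, past no threshold. The gene clec-93 had 3, 4 and 2 in tdp-1(ok803) and 4, 8 and 7 in N2, values that touch at 4, with a limma adjusted p of 0.0563. Its input was 1 in tdp-1(ok803) and 0 in N2, so it has no ratio to the N2 input. Leaving out N2 replicate 2 or 3, or tdp-1(ok803) replicate 1 or 3, moved clec-93 outside the threshold (adjusted p of 0.129 to 0.157). The gene clec-93 was also the single member in the authors' list of 204 A-to-I editing regions, with a region in intron 1.

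The remaining 7 tested members did not pass with the deposited values. The gene clec-87, second to clec-223 in level, had 505, 438 and 398 in tdp-1(ok803) and 416, 348 and 437 in N2. The gene clec-41 had 59, 138 and 68 in tdp-1(ok803) and 69, 96 and 79 in N2, with replicate 2 highest in both genotypes. With the input ratio applied clec-41 was called higher, at 1.02 on the log2 scale (limma adjusted p = 0.0754). The gene clec-170 had 21, 31 and 26 in tdp-1(ok803) and 28, 35 and 34 in N2. It was called lower with the replicate number as a block (limma adjusted p = 0.0631) and with equal library totals (-0.66, limma adjusted p = 0.0205). For clec-178, clec-149, clec-90 and clec-147 the values lay between 4 and 28 in every library and overlapped or touched between genotypes. Of these, clec-147 was called lower with equal library totals (-0.53, limma adjusted p = 0.0349). In RefSeq clec-178 overlaps skn-1, and it was listed at 0 in all poly(A) libraries. In all, 5 of the 15 tested members overlap another gene, among them clec-88, which was called higher and overlaps ctsa-4.1. Of the 32 members in the J2-IP values, 11 overlap another gene.

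Without the filter on enrichment, limma called 15 of the 32 members higher (46.9%, beside 44.6% of 8680 genes) and 3 lower (9.38%, beside 8.17%). The 3 tdp-1(ok803) values lay above all 3 N2 values in 15 members (46.9%, beside 44% of genes) and below them in 2 (6.25%, beside 7.97%). Among the genes added, clec-50 had 117, 111 and 95 in tdp-1(ok803) and 58, 58 and 60 in N2. The gene clec-51 had 16, 15 and 14 in tdp-1(ok803) and 9, 8 and 9 in N2. The gene clec-266 had 20, 17 and 17 in tdp-1(ok803) and 22, 23 and 29 in N2. Over N2 input, the J2-IP means exceeded 1.5-fold in 14 of the 31 members with an N2 input above 0 in tdp-1(ok803) (45.2%, beside 43.1% of all genes) and in 9 of 31 in N2 (29.0%, beside 29.6%).

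The input RNA differed more. In young adults, 10 of the 31 members were over 1.5-fold higher in the tdp-1(ok803) input than in the N2 input (32.3%, beside 7.63% of all genes), and 3 were over 1.5-fold lower (9.68%, beside 13.8%). The median ratio of tdp-1(ok803) to N2 was 1.06 for the members and 0.864 for all genes. The neighbours on chromosome II were among the 10, with tdp-1(ok803) set against N2 in each case, namely clec-63 with 230 against 109, clec-65 with 21 against 11 and clec-62 with 16 against 6. The others were clec-209, clec-150 with 56 against 36, clec-41 with 32 against 16, clec-7 with 16 against 10, clec-10 with 12 against 7, clec-186 with 8 against 4 and clec-262. With 1 input library per genotype, these ratios have no replicate check and no test, and the low values among them rest on few counts.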

How the data were processed

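Poly(A) RNA, J2-IP and J2-IP input libraries were used, 14 in all. The authors trimmed and filtered reads, removed rRNA reads and aligned to WS220. The poly(A) table that the authors deposited holds a signal per gene, the normalized count, and whole reads were recovered from it (100% of values were whole, within 0.01 of a read). The J2-IP and input values that the authors deposited are whole numbers, treated here as a score (normalized counts after rounding). The J2-IP values were normalized to input, and the scaling of the input is not given in the sources used here. The submitters' processing notes name TopHat2 2.0.10, Bowtie2 2.1.0, HTSeq 0.5.4p3 and DESeq 1.16 among their tools. The editing list was read for gene names alone. The authors' own comparison columns in it (percent edited, fold and p-value) were not used. ChIP peaks were not analysed here, since they carry WS220 coordinates.

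Genotypes were compared with limma 3.58.1 (R 4.3.3) on log2(value + 1), fitting a trend of variance with mean and adjusting p-values over all genes tested by Benjamini and Hochberg's method, so fold changes of low genes are understated. Poly(A) genes needed 10 or more normalized counts in at least 3 libraries (adjusted p under 0.05). J2-IP genes needed a mean over 1.5 times the N2 input (p under 0.05, adjusted p under 0.1). The count tests on recovered reads, edgeR 4.0.16 and DESeq2 1.42.0, called 0 members higher and 0 lower. Scripts were tested on simulated data.

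Same-numbered libraries deviated together from their genotype means (poly(A) pairs 1, 2 and 3 correlated across genes at 0.657, 0.435 and 0.353, and J2-IP pairs at 0.371, 0.782 and 0.534), so fits with a replicate block were made. Some different-numbered pairs did so as well. In poly(A) RNA, N2 replicate 2 with tdp-1(ok803) replicate 3 gave 0.38, and N2 replicate 3 with tdp-1(ok803) replicate 2 gave 0.305. In the J2-IP, N2 replicate 1 with tdp-1(ok803) replicate 3 gave 0.501, and N2 replicate 3 with tdp-1(ok803) replicate 1 gave 0.193. The rest were negative (-0.675 to -0.341). Poly(A) replicates 2 and 3 are thus not clearly paired by number. Other alternatives were scalings, pseudocounts of 0.5 and 5, filters, each library left out, and replicates 2 and 3 alone.

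Named are members past a threshold, the 10 with most counts, the 8 largest rises and falls, the 6 largest shifts of replicate 1 in each direction, the members in the J2-IP test and editing list, and members with a known role. Genes with no overlap between genotypes and neighbours were added after their values were seen. Members, lists and tests were chosen with earlier results of these data known. Names, gene types, overlaps and gene order come from RefSeq (WBcel235), where 264 of 265 members matched, all but clec-81. Of J2-IP genes, 8598 of 8783 were joined to the input, with all 32 members. Depth is unknown for the J2-IP and input.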

Additional observations from a re-analysis of the deposited data

How the results depend on the processing

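In poly(A) RNA, no member was called under any other test, scaling, pseudocount, filter or block, nor with any 1 library left out, and the replicate block gave 0 higher and 0 lower. Replicates 2 and 3 alone gave 2 higher and 5 lower. The member median of -0.11 became -0.022 with edgeR and TMM scaling, -0.036 with DESeq2, -0.036 with edgeR and RLE scaling and -0.014 with equal library totals, and -0.15 to 0.0054 with 1 library left out, turning positive without tdp-1(ok803) replicate 2, so its sign is not firm. With a filter of 50 normalized counts, 9 members had no overlap between genotypes in place of 14, as fewer genes were tested. In the J2-IP, 15 members were called higher with no filter on enrichment, since more genes were tested. The number called lower was 1 with the input ratio applied and 4 with equal library totals, and 1 to 3 with 1 library left out, while the median was -0.20 with equal library totals. The replicate block called 6 higher and 3 lower, adding clec-170, and changed no other call.

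The sign turned with the input ratio applied for clec-52 (-0.88), clec-223 (-0.21) and clec-178 (-0.19), and with equal library totals for clec-178 (-0.077), clec-87 (-0.20), clec-149 (-0.31) and clec-41 (-0.33). It also turned with 1 library left out for clec-149 (-0.17 to 0.18, negative without tdp-1(ok803) replicate 2) and for clec-41 (-0.34 to 0.26, negative without tdp-1(ok803) replicate 2 and, at -0.083, without N2 replicate 1). The cause was not tested. Depth limits the low genes: 1 read was 0.785 to 1.34 normalized counts in poly(A) RNA, and J2-IP values under 10 stand on few counts.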
